A study of Mus musculus with 24 samples.

Results

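Cohesin is a ring-shaped protein complex that holds sister chromatids together and folds chromatin into loops. In dividing somatic cells the ring is built from Smc1a, Smc3, the kleisin Rad21 and either Stag1 or Stag2, and germ cells entering meiosis replace these with Smc1b, the kleisins Rec8 and Rad21l, and Stag3, while Smc3 is kept. The meiotic subunits are best known from spermatocytes and oocytes, where they organise chromosome axes for pairing and recombination, and embryonic stem cells (ESCs) transcribe several such germline genes at a low level, under the control of DNA methylation and Polycomb repressors. The Tet enzymes oxidise 5-methylcytosine and so promote demethylation. The 8 subunit genes described here, of a total of 22926 gene symbols with counts, were taken by name. They are 4 meiotic subunits (Smc1b, Stag3, Rec8 and Rad21l) and, for comparison, 4 mitotic ones (Smc1a, Stag1, Stag2 and Rad21). Smc1b itself was chosen by its D0 counts, which were lower than in wild-type cells in 3 of the 4 knockout genotypes. Its D0 values and every difference that uses them are therefore given as a description, with no p-value, and the calls that made the choice are named to say how it was made and not as a test.

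Polyadenylated RNA was sequenced from 24 libraries of mouse ESC clones, 12 kept undifferentiated with LIF (D0) and 12 taken after 6 days of LIF withdrawal (D6), which lets ESCs differentiate. WT and Tet1-/- were each sequenced as 3 clones a day. Tet2-/-, the double knockout of Tet1 and Tet2 (DKO) and the triple knockout of Tet1, Tet2 and Tet3 (TKO) were each sequenced as 2. All clones, WT included, descend from a single line of 129/SVj origin that carries eGFP in the Pou5f1 locus. The knockouts were made with CRISPR/Cas9 guides. Every genotype thus stands on 2 or 3 clones of one line at each day, which for Tet1-/- were not all the same clones at both days. Clones are called by the labels, and 11 of them were sequenced at both days, where the D6 label D6_DKO_512 was read as clone DKO_5.12. The exceptions are Tet1_KO_2.3, which has a D0 library alone, and Tet1_KO_2.2, which has a D6 library alone. Values of single clones are given in the order O4.1, O4.2 and O4.13 for WT, Tet1_KO_2.1, Tet1_KO_2.3 (D0) or Tet1_KO_2.2 (D6) and Tet1_KO_2.4 for Tet1-/-, Tet2_KO_3.10 and Tet2_KO_3.11 for Tet2-/-, DKO_5.11 and DKO_5.12 for DKO, and TKO_8.4 and TKO_8.12 for TKO.

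Totals per library ran from 18400463 to 37290208 counts, and 3 counts, the limit that a count of 0 allows, equalled 0.0814 to 0.151 CPM (counts per 1000000 counts, scaled by TMM), which covers counting error only. The summed level of 8 pluripotency markers was 5398 to 6350 CPM at D0 and 1113 to 3066 CPM at D6, and that of 11 differentiation markers 9.73 to 20.4 CPM and 29.4 to 745 CPM, lowest at D6 in the 2 Tet2-/- clones (36.3 and 29.4 CPM). Among germ cell markers Nanos2 was at 0 in 23 of 24 libraries and the other 7 of the 8 were detected in every library. Tet1 RNA was not a check of the labels, since WT and Tet1-/- overlapped at D0 (220 to 431 and 93.4 to 358 CPM), and short edits need not remove a transcript. Tet2 RNA at D0 was 87.9 to 93.9 CPM in WT, 20.9 and 23.2 CPM in Tet2-/-, 55.7 and 22.3 CPM in DKO and 42.5 and 8.16 CPM in TKO, below WT in each of these clones but nearer to it in DKO_5.11 and TKO_8.4. The pair of TKO clones stood further apart at D0 than any other pair of one group, with Tet1 at 567 CPM in clone TKO_8.4 and 41.7 CPM in clone TKO_8.12. RNA levels do not show whether a clone lacks the protein, and these data hold no test of it for TKO_8.4 or any other clone. The paper itself reports loss of protein by Western blot, with representative blots of Tet1 and Tet2. It also lists sequenced indels in Tet1, Tet2 and Tet3 for both TKO clones. At D6 the WT clone O4.2 had pluripotency markers at 2437 CPM, against 1113 and 1274 CPM in the other WT clones.

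Per kilobase of the longest coding transcript the meiotic subunits lay well below their mitotic counterparts. Over the 12 D0 libraries the median level was 4.134 CPM per kb for Rec8, 2.33 for Stag3, 0.386 for Smc1b and 0.124 for Rad21l, and over the 12 D6 libraries 3.60, 2.12, 0.759 and 0.489 CPM per kb in the same order. Among the mitotic subunits the D0 medians were 153 CPM per kb for Rad21, 40.8 for Smc1a, 28.0 for Stag1 and 19.1 for Stag2, and at D6 they were 116, 48.3, 29.0 and 49.7 CPM per kb. Smc3, the core subunit that both kinds of ring share, had medians of 61.8 and 71.3 CPM per kb. Among the meiotic genes the ranges of neighbours in this order overlapped at both days, so that the order holds for the medians, and among the mitotic genes Rad21 stood above all libraries of the other members at both days. As a ratio of levels per length, Smc1b reached 0.397% to 4.43% of Smc1a at D0 and 0.580% to 15.2% at D6, Rec8 1.83% to 4.92% and 2.11% to 6.46% of Rad21, and Stag3 4.85% to 14.7% and 4.25% to 20.2% of Stag1.

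**Figure D1:**
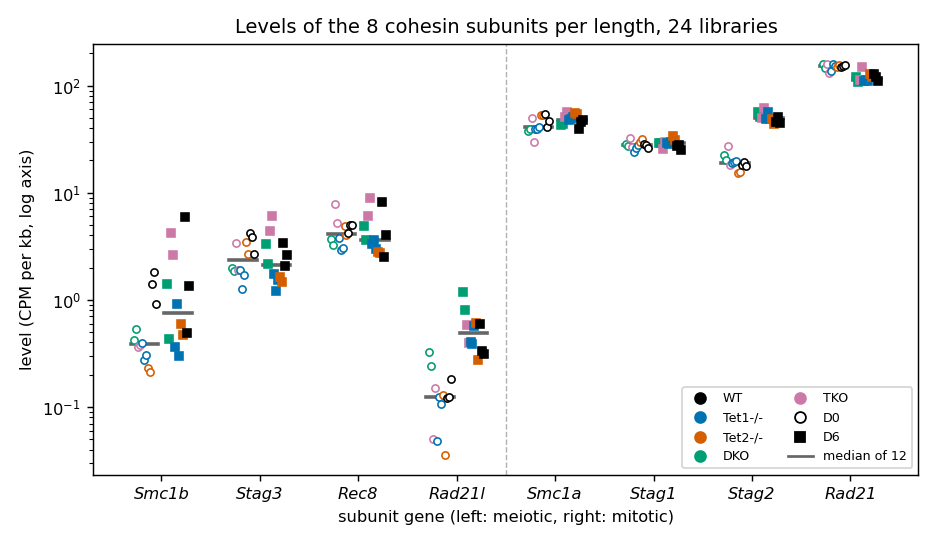
Level of each subunit gene in CPM per kb of transcript on a log axis, with 1 point per library (open circles D0, filled squares D6, coloured by genotype) and a bar at the median of the 12 libraries of a day. The 4 meiotic genes on the left have medians of 0.124 to 4.134 CPM per kb at D0, and the 4 mitotic genes on the right of 19.1 to 153.

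The promoters of the meiotic subunits are shown because Smc1b, Rec8 and Stag3 varied together over the D6 libraries, as described further on, while Rad21l had a low correlation with Smc1b. Each sequence is from RefSeq (GRCm38.p6), runs from 250 bases before to 50 bases after the annotated start on the strand of the gene, and was found exactly once in mm9, the build of the counts. Smc1b lies on chromosome 15 (mm9 gene model 84895121 to 84962387, minus strand, 25 exons in the longest coding transcript), with the promoter window at chr15:84962338-84962637. Stag3 lies on chromosome 5 (138721468 to 138753621, plus strand, 34 exons), with the window at chr5:138721487-138721786. Rec8 lies on chromosome 14 (56236874 to 56244232, plus strand, 20 exons), with the window at chr14:56236753-56237052. Rad21l lies on chromosome 2 (151471140 to 151494269, minus strand, 13 exons), with the window at chr2:151494220-151494519. The RefSeq start is the start of the mm9 gene model for Smc1b and Rad21l, and lies 269 bases inside the model for Stag3 and 129 bases inside it for Rec8, so that distances of motifs are from the RefSeq start and distances between genes from the models. Capitals mark TCCCGC, the core of the site that E2F factors bind, and CACGTG, the E-box that Mga and Max bind.
Smc1b: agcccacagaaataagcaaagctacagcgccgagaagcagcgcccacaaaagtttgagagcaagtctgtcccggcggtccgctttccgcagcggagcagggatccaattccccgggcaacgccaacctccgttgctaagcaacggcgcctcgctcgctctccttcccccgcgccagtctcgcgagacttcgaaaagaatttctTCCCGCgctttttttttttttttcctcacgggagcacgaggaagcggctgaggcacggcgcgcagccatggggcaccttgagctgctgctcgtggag
Stag3: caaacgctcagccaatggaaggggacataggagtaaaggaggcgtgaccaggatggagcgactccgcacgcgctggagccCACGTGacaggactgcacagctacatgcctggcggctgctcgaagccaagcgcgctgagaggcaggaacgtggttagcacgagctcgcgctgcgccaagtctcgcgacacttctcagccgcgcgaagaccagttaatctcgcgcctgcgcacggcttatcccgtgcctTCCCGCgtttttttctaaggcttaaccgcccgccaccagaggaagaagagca
Rec8: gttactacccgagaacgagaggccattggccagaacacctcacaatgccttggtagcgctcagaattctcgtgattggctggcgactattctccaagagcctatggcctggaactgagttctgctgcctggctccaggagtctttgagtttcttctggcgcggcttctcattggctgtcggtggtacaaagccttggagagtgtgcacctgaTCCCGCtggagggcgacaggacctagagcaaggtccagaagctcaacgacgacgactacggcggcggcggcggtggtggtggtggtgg
Rad21l: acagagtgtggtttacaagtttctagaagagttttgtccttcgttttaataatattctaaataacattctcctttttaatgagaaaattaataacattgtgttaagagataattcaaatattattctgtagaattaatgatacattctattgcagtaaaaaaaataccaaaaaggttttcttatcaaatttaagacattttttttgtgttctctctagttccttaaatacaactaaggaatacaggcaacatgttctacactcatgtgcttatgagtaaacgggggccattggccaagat

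TCCCGC, searched on both strands, occurred once each in the windows of Smc1b (first base 47 before the start), Stag3 (2 before) and Rec8 (38 before) and not in that of Rad21l. In Smc1b and Stag3 the match extended to the longer TTCCCGC, which contains the core. Of 32817 promoter windows of this length in the table, 19.97% held TCCCGC, 4.60% held TTCCCGC and 7.15% held CACGTG, which among the 4 meiotic genes occurred only in Stag3, 170 bases before the start. Among the comparison genes with a window in the table, Smc1a and Stag1 held TTCCCGC and Smc3 held the core alone (the RefSeq start of Stag1 lies 45650 bases inside its model), while Stag2 and Rad21 had no entry. These matches are letters in a window and were not tested as binding sites, and their link to the levels was not tested. Smc1a and Stag1 had r of -0.274 and -0.497 with Smc1b over the D6 libraries. CpG pairs numbered 30 in the window of Stag3, 29 in Smc1b, 18 in Rec8 and 2 in Rad21l, against a median of 7 over all windows. As background, E2F6 and Mga belong to a Polycomb complex (PRC1.6) that is known to keep germline genes, Smc1b and Stag3 among them, silent in somatic cells.

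Smc1b, the meiotic counterpart of Smc1a, was lower in every knockout library than in every WT library at D0. The 3 WT clones had 5.65, 7.32 and 3.67 CPM, from 85 to 178 counts. Tet1-/- clones had 1.59, 1.11 and 1.23 CPM, and Tet2-/- clones 0.939 and 0.847 CPM. DKO clones had 1.69 and 2.17 CPM, and TKO clones 1.46 and 1.52 CPM. All 9 knockout libraries thus lay below the lowest WT clone, with the 2 Tet2-/- clones lowest and the 2 DKO clones highest among them. Smc1b was picked on these values, so this separation is no test. The share of all genes that separate in this way was not counted, here or for the other members. The group means were 5.55 ± 1.83 CPM in WT (SD, n = 3), 1.31 ± 0.251 in Tet1-/- (n = 3), 0.893 ± 0.0646 in Tet2-/- (n = 2), 1.93 ± 0.338 in DKO (n = 2) and 1.49 ± 0.0444 in TKO (n = 2). On the log2 scale these were differences of -2.66 (SE 0.323) in Tet2-/-, -2.10 (0.269) in Tet1-/-, -1.89 (0.306) in TKO and -1.54 (0.301) in DKO. The choice rested on calls at an edgeR adjusted p under 0.05 with more than 2-fold change, and Tet1-/- was the genotype just inside that limit and DKO the one just outside. These places were not firm: Tet1-/- fell outside in 8 fits with a single library left out and Tet2-/- in 1, while DKO fell inside in 2 such fits, with DESeq2 and with no filter on low counts. In bulk RNA fewer cells that transcribe a gene and less RNA in each cell cannot be told apart.

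At D6, in libraries that the choice did not use, the order of the genotypes was different and the WT clones spread widely. WT clones had 1.97, 23.9 and 5.44 CPM, and TKO clones 17.1 and 10.5 CPM. Tet1-/- clones had 1.48, 3.71 and 1.20 CPM and Tet2-/- clones 2.42 and 1.88 CPM. DKO clones had 1.74 and 5.64 CPM. The highest library exceeded the lowest 19.9-fold, against 8.65-fold at D0, and 4 of the 9 knockout libraries lay below every WT clone, 2 of Tet1-/-, 1 of Tet2-/- and 1 of DKO, while none lay above every WT clone. In TKO both clones lay above 2 of the 3 WT clones.

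Over the 15435 genes tested at D6 the edgeR quasi-likelihood test, with p-values adjusted by Benjamini-Hochberg, called Smc1b in no knockout. It called 14.3% of all genes in Tet2-/- and 0% in Tet1-/-, DKO and TKO. In those with 0% an absent call, of Smc1b or of another gene, is thus not particular to that gene. The log2 difference of Smc1b from WT was -2.32 (SE 0.807, adjusted p = 0.337) in Tet1-/- and -2.30 (SE 0.938, adjusted p = 0.0848) in Tet2-/-. It was -1.501 (SE 0.891, adjusted p = 0.460) in DKO and 0.41 (SE 0.829, adjusted p = 0.795) in TKO. Against DKO, the genotype to which each was also compared, edgeR gave -0.82 in Tet1-/- (adjusted p = 0.995), -0.80 in Tet2-/- (adjusted p = 0.598) and 1.91 in TKO (adjusted p = 0.612), where 0%, 9.5% and 0% of all genes were called. One WT clone weighed on the Tet2-/- value: without O4.1 at D6 the difference was -2.76 (SE 0.797, adjusted p = 0.0434) and Smc1b would be called lower. The small TKO value changed sign without O4.1 (-0.07) or without clone TKO_8.4 (-0.01), and was 1.90 without O4.2. Without O4.2 the differences from WT were -0.82 in Tet1-/-, -0.81 in Tet2-/- and -0.01 in DKO, so that this clone, with the highest Smc1b, carried most of their size. Differentiation markers differed across the same WT clones: O4.2, with the highest Smc1b, had them at 206 CPM, against 645 CPM in O4.1 and 745 CPM in O4.13, and their part in the result was not tested.

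Followed clone by clone from D0 to D6, Smc1b was higher at D6 in 8 of 11 clones. The level in the TKO clones was 11.7 and 6.88 times that at D0, the largest ratios of all clones. The WT clones had ratios of 0.348, 3.27 and 1.48. The Tet1-/- clones had 0.930 and 0.972, the Tet2-/- clones 2.58 and 2.22, and the DKO clones 1.03 and 2.61. Germ cell markers summed to 101 and 118 CPM in the TKO clones at D0 and 197 and 225 CPM at D6, against 222 to 276 CPM and 87.6 to 156 CPM in WT, and their part in the Smc1b values was not tested.

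**Figure D2:**
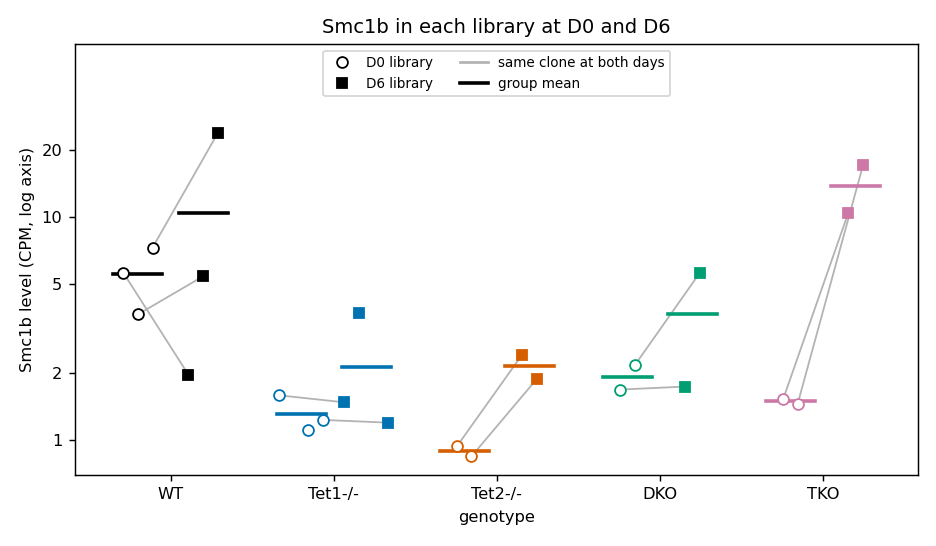
Smc1b in CPM on a log axis for each library by genotype, with D0 as open circles, D6 as filled squares, grey lines joining libraries of the same clone and bars at group means. At D0 all 9 knockout libraries (0.847 to 2.17 CPM) lie below the WT clones (3.67 to 7.32 CPM), and at D6 the WT clones span 1.97 to 23.9 CPM with the TKO clones at 10.5 and 17.1 CPM.

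The genes next to Smc1b were nearly silent on one side and steady on the other. Ribc2 starts 142 bases from the Smc1b start on the opposite strand and had at most 0.302 CPM at D0 and 0.0697 CPM at D6, where its median was 0. On the other side Fam118a, 1863 bases beyond the end of Smc1b, stayed at 26.9 to 42.8 CPM over all 24 libraries and was called in no comparison of a knockout with WT or of D6 with D0.

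Stag3, the STAG subunit of meiotic rings, differed from Smc1b in its order of genotypes at D0. At D0 the WT clones had 17.8, 16.3 and 11.4 CPM and the Tet1-/- clones 8.04, 5.37 and 7.23 CPM. The Tet2-/- clones had 14.6 and 11.3 CPM, the DKO clones 8.35 and 7.83 CPM and the TKO clones 14.2 and 8.04 CPM. All Tet1-/- and DKO clones lay below the WT range, while Tet2-/-, lowest for Smc1b, reached into it. The differences by the edgeR test were -1.16 (SE 0.240, adjusted p = 0.111) in Tet1-/- and -0.92 (SE 0.272, adjusted p = 0.163) in DKO. They were -0.44 (SE 0.264, adjusted p = 0.309) in TKO and -0.25 (SE 0.261, adjusted p = 0.558) in Tet2-/-. The Tet1-/- value was under the limit with DESeq2 (-1.16, adjusted p = 0.00118), with no filter on low counts (edgeR adjusted p = 0.0396) and with either TKO clone left out of the fit (edgeR adjusted p = 0.00802 without TKO_8.4 and 0.00781 without TKO_8.12).

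At D6 Stag3 was at 8.72, 14.2 and 10.98 CPM in WT and at 7.34, 5.14 and 6.47 CPM in Tet1-/-. It was at 6.94 and 6.14 CPM in Tet2-/-, 9.13 and 13.9 CPM in DKO and 18.6 and 25.4 CPM in TKO. The 5 Tet1-/- and Tet2-/- libraries lay below every WT clone and the 2 TKO libraries above every WT clone. How many of all genes separate in this way was not counted. The difference from WT by edgeR was 0.97 (SE 0.257, adjusted p = 0.0820) in TKO and -0.84 (SE 0.238, adjusted p = 0.322) in Tet1-/-. It was -0.81 (SE 0.270, adjusted p = 0.0455, a change of 1.75-fold and so under the 2-fold limit) in Tet2-/- and 0.03 (SE 0.261, adjusted p = 0.972) in DKO. Without WT clone O4.2 the TKO difference was 1.17 and passed both limits (edgeR adjusted p = 0.0266).

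The effect of TKO on Stag3 differed between the days: the TKO difference at D6 exceeded that at D0 by 1.40 on the log2 scale (SE 0.391, edgeR adjusted p = 0.0406), the one change of this kind called among the 6 members left after Smc1b and Rad21l, where 3.58% of all genes were called. Within TKO, Stag3 at D6 stood 0.98 above D0 (SE 0.303, edgeR adjusted p = 0.0117, just under 2-fold, and 1.01 with adjusted p = 0.0161 with the clone as a block, which would be a call), and within Tet2-/- it stood at -0.98 (SE 0.307, edgeR adjusted p = 0.0160). The TKO clones were not alike, at 1.31 times the D0 level in TKO_8.4 and 3.16 times in TKO_8.12, and without TKO_8.12 at D0 the change was 0.62 (edgeR adjusted p = 0.155). The call did not hold with every library, since leaving out single libraries gave 1.04 (without clone TKO_8.12 at D0) to 1.86 with edgeR adjusted p of 0.0149 to 0.112, and 12 of 24 such fits lost it. These were the fits without clone TKO_8.12 at either day, WT clone O4.1 at either day, O4.2 at D0, O4.13 at D6, either DKO clone at D0, clone Tet1_KO_2.4 at D0, clone Tet2_KO_3.11 at either day or Tet2_KO_3.10 at D6. Gpc2, whose start is 235 bases from that of Stag3 on the opposite strand, was not called in any knockout against WT at either day. Its D6 level was 1.92 above D0 on the log2 scale in WT (SE 0.296, edgeR adjusted p = 1.66e-05) and 1.26 in TKO (SE 0.361, edgeR adjusted p = 0.00726).

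Rec8, the kleisin whose cleavage releases sister chromatids in meiosis, was called in none of the comparisons. At D0 it had 9.21, 10.9 and 10.8 CPM in WT and 8.32, 6.31 and 6.65 CPM in Tet1-/-. It had 10.8 and 8.85 CPM in Tet2-/-, 8.09 and 7.04 CPM in DKO and 17.2 and 11.5 CPM in TKO. Both TKO clones stood above and all Tet1-/- and DKO clones below the WT range, a separation that was not counted over all genes. These differences were 0.48 in TKO (SE 0.197, edgeR adjusted p = 0.146) and -0.56 in Tet1-/- (SE 0.182, edgeR adjusted p = 0.237). They were -0.46 in DKO (SE 0.206, edgeR adjusted p = 0.340) and -0.09 in Tet2-/- (SE 0.20, edgeR adjusted p = 0.791).

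At D6 Rec8 was at 5.496, 18.0 and 8.88 CPM in WT and at 7.25, 7.93 and 6.53 CPM in Tet1-/-. It was at 6.10 and 6.03 CPM in Tet2-/-, 7.82 and 10.6 CPM in DKO and 13.1 and 19.5 CPM in TKO. The same WT clone, O4.2, stood apart as for Smc1b, and no group lay wholly outside the WT range. The differences were 0.59 in TKO (SE 0.387, edgeR adjusted p = 0.367) and -0.59 in Tet1-/- (SE 0.354, edgeR adjusted p = 0.486). They were -0.86 in Tet2-/- (SE 0.405, edgeR adjusted p = 0.130) and -0.23 in DKO (SE 0.394, edgeR adjusted p = 0.823). Leaving out O4.2 made the TKO difference 1.19 (edgeR adjusted p = 0.0281), and leaving out O4.1 made the Tet2-/- difference -1.14 (edgeR adjusted p = 0.0436), which would both be calls. The end of Ipo4 lies 5 bases from that of Rec8 on the opposite strand, and Ipo4, at 93.8 to 232 CPM, was not called in any knockout at either day.

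Over the 12 D6 libraries the level of Smc1b went with that of Rec8 and of Stag3. Pearson's r of log2(CPM + 1) was 0.899 with Rec8 (Spearman's rho 0.783) and 0.783 with Stag3 (rho 0.713), and without the 2 libraries farthest from the median of Smc1b it was 0.874 and 0.796. WT clone O4.2 and both TKO clones were the 3 highest libraries for each of these genes. At D0 r was 0.175 with Rec8 and 0.554 with Stag3, and the latter was 0.011 without the 2 farthest libraries, both of them WT. With Rad21l r was 0.194 at D0 and 0.144 at D6, and with the mitotic subunits -0.193 to 0.069 at D0 and -0.497 to 0.396 at D6. Without the 2 farthest libraries r at D6 was 0.629 with Rad21, 0.616 with Stag2, 0.115 with Smc1a, -0.237 with Stag1 and 0.048 with Rad21l, so that Rad21 and Stag2 then came closer to the values of Rec8 and Stag3. Some meiotic genes outside cohesin came about as close to Smc1b at D6, among them Rec114 (r = 0.849) and Hormad2 (0.812). Others did not, such as Sycp1 (0.132) and Prdm9 (-0.693). At D0 r was 0.754 for Rec114 and 0.797 for Hormad2. These genes were chosen after their values were seen, and the share of all genes with such r was not computed. The points share genotypes and clones and are not independent, so these values describe the libraries and carry no test. The summed markers of pluripotent, differentiated, germ and 2-cell-like cells had r of 0.171, 0.030, 0.355 and 0.031 with Smc1b at D6.

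**Figure D3:**
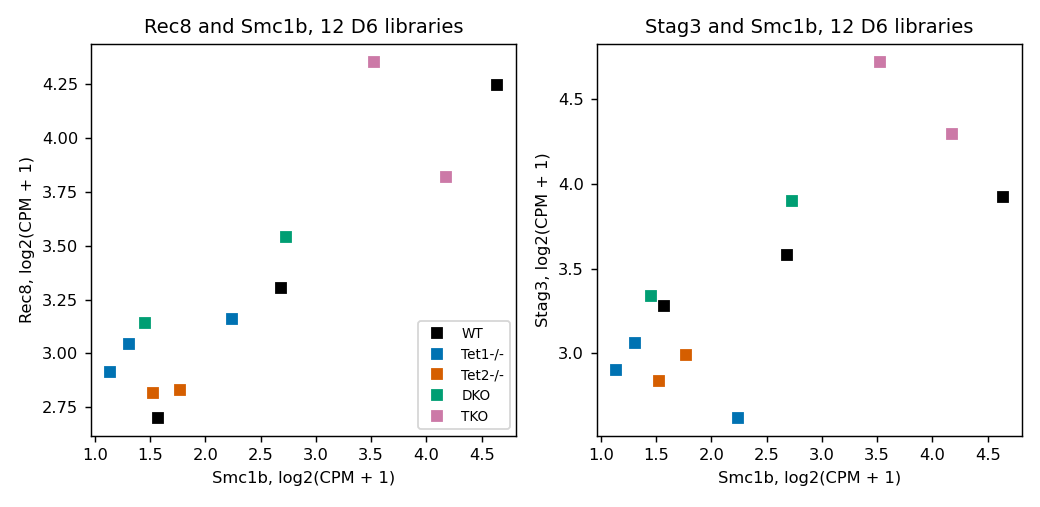
Level of Rec8 (left) and Stag3 (right) against that of Smc1b in the 12 D6 libraries, both axes in log2(CPM + 1), 1 square per library coloured by genotype. WT clone O4.2 and the 2 TKO clones lie at the upper right, with r of 0.899 for Rec8 and 0.783 for Stag3.

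Among the 15639 genes tested over both days, the 10 whose levels were most like that of Smc1b over all 24 libraries included Usp26 (r = 0.855), 4933427D06Rik (0.838), Cd6 (0.829), Ccdc162 (0.814), Zfy1 (0.805), 2610015P09Rik (0.801), Slc6a13 (0.795), Zfp39 (0.785) and Tmem213 (0.779). No other cohesin subunit was among them, and Stag3 (r = 0.634) and Rec8 (r = 0.618) ranked at places 198 and 229. These 24 libraries include the D0 libraries in which Smc1b was picked.

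Rad21l, the second meiotic kleisin, was barely detected at D0 and was higher at D6 in each genotype. At D0 it had 0.202, 0.206 and 0.302 CPM in WT and 0.0796, 0.205 and 0.176 CPM in Tet1-/-. It had 0.213 and 0.0584 CPM in Tet2-/-, 0.533 and 0.394 CPM in DKO and 0.0835 and 0.247 CPM in TKO. These were 2 to 12 counts a library, too few to pass the filter at D0, with 2 counts in each of the clones Tet1_KO_2.1, Tet2_KO_3.11 and TKO_8.4. At D6 it had 0.555, 0.980 and 0.509 CPM in WT and 0.667, 0.643 and 0.947 CPM in Tet1-/-. It had 1.01 and 0.453 CPM in Tet2-/-, 1.31 and 1.95 CPM in DKO and 0.953 and 0.649 CPM in TKO, from 11 to 72 counts. The DKO clones were the highest at both days, but the DKO difference from WT at D6 was not called (log2 1.26, SE 0.428, edgeR adjusted p = 0.252).

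The level of Rad21l was higher at D6 in 11 of 11 clones, by 1.68 to 11.4 times, the latter in clone TKO_8.4 from 2 counts at D0. The ratios were 1.68 to 4.76 in the WT clones, 8.39 and 5.37 in the Tet1-/- clones, 4.72 and 7.76 in the Tet2-/- clones, 2.47 and 4.96 in the DKO clones and 2.62 and 11.4 in the TKO clones. Since the gene passed the filter on low counts only at D6, where it is higher, this difference is given as a description, with no test. Its neighbours differed: Snph, 12811 bases beyond the Rad21l end, was 4.33 higher at D6 in WT on the log2 scale (SE 0.503, edgeR adjusted p = 6.12e-07), and Psmf1 on the other side was called in no comparison of the days.

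Of the mitotic subunits Stag2 alone was called between the days, and it rose in all 5 genotypes. Stag1 is linked to cohesion at telomeres and Stag2 to cohesion at centromeres. Stag2 had 110 to 120 CPM in the WT clones at D0 and 276 to 314 CPM at D6, and over all genotypes 93.4 to 167 CPM and 271 to 385 CPM, with no overlap between the days. The log2 change was 1.36 in WT (SE 0.121, edgeR adjusted p = 2.64e-08) and 1.41 in Tet1-/- (SE 0.121, edgeR adjusted p = 2.03e-08). It was 1.603 in Tet2-/- (SE 0.149, edgeR adjusted p = 2.16e-07), 1.33 in DKO (SE 0.148, edgeR adjusted p = 8.70e-07) and 1.31 in TKO (SE 0.148, edgeR adjusted p = 1.56e-06). Each of the 11 clones followed at both days rose by 1.85 to 3.42 times. No library left out ended any of these calls. The knockout effect on Stag2 did not pass the test for a difference between the days in any genotype (edgeR adjusted p of 0.381 to 0.995).

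Stag1 was flat by comparison, at 149 to 203 CPM at D0 and 156 to 211 CPM at D6, with log2 changes between the days of -0.10 to 0.16 and no call. Per length, the ratio of Stag2 to Stag1 was 0.488 to 0.827 at D0 and 1.42 to 2.09 at D6, so that Stag1 was above Stag2 in each D0 library and below it in each D6 library. The 2 Tet2-/- clones had the lowest ratio of all libraries at both days, 0.507 and 0.488 at D0 and 1.44 and 1.42 at D6. For Tet2-/- at D0 neither gene passed the test against WT (Stag2 -0.29, SE 0.137, edgeR adjusted p = 0.187 and Stag1 0.14, SE 0.103, edgeR adjusted p = 0.390).

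**Figure D4:**
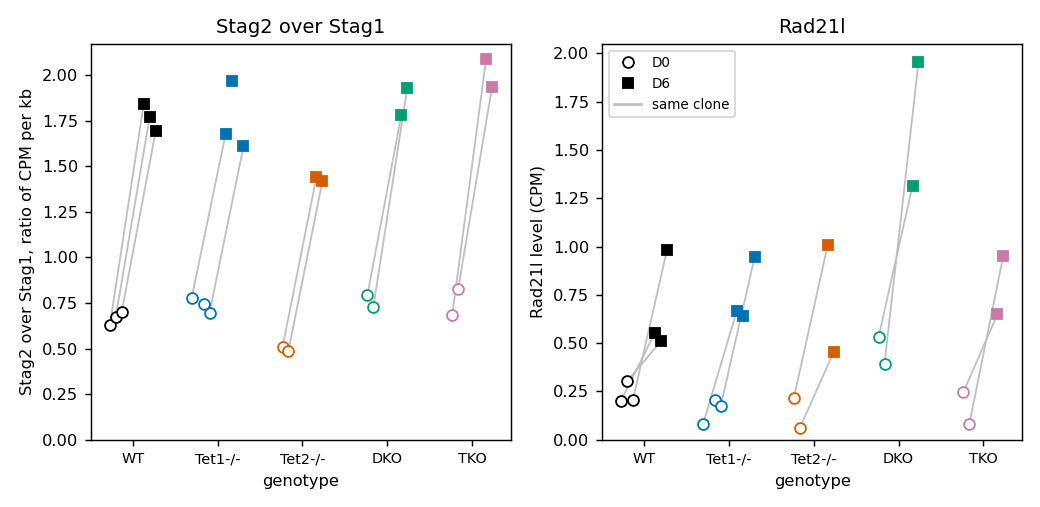
Ratio of Stag2 to Stag1 in CPM per kb (left) and level of Rad21l in CPM (right), both axes from 0, for each library by genotype, with open circles for D0, filled squares for D6 and grey lines joining libraries of the same clone. The ratio is 0.488 to 0.827 at D0 and 1.42 to 2.09 at D6, and Rad21l is higher at D6 in all 11 clones followed.

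Rad21, the mitotic kleisin, was lower at D6 than at D0 in 10 of 11 clones, by less than 2-fold. It had 476 to 579 CPM at D0 and 392 to 536 CPM at D6. Its log2 change was -0.43 in Tet1-/- (SE 0.0994, edgeR adjusted p = 0.00102), -0.42 in DKO (SE 0.122, edgeR adjusted p = 0.00710) and -0.35 in WT (SE 0.0993, edgeR adjusted p = 0.00490). It was -0.27 in Tet2-/- (SE 0.122, edgeR adjusted p = 0.0818) and -0.17 in TKO (SE 0.122, edgeR adjusted p = 0.255). Scaling by library totals in place of TMM moved the median of all genes between the days by 0.139 to 0.209 on the log2 scale, and Rad21 was then at -0.22 in Tet1-/-, -0.21 in DKO, -0.20 in WT, -0.13 in Tet2-/- and -0.0007 in TKO, all below that median. Smc1a, the mitotic SMC subunit, had 139 to 252 CPM at D0 and 183 to 265 CPM at D6, with log2 changes between the days of -0.09 in WT to 0.44 in TKO (SE 0.163, edgeR adjusted p = 0.0322, under 2-fold). The TKO value came from clone TKO_8.12, at 1.91 times its D0 level against 1.02 times in TKO_8.4, and without TKO_8.12 at D0 it was 0.11 (edgeR adjusted p = 0.536). With library totals the Smc1a change in WT turned positive (0.06), as did that of Stag1 in WT (0.10) and in TKO (0.08).

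Counted over the genotypes at D0, none of the 6 members tested besides Smc1b was called by edgeR, where it called 0.00692% of all genes for Tet1-/-, 0.0346% for DKO, 3.19% for Tet2-/- and 3.15% for TKO. At an unadjusted p under 0.05 there were 2 members in Tet1-/- (12.6% of all genes) and 2 in DKO (14.4%), Stag3 and Rec8 in both and lower. There were 0 in Tet2-/- (29.2% of all genes) and 2 in TKO (26.4%), Rec8 and Stag2, both higher. DESeq2 called 1 member, Stag3 in Tet1-/-. At D6 all 8 members were tested and 0 were called by edgeR or DESeq2 in any genotype, where edgeR called 14.3% of all genes for Tet2-/- and 0% for each of the other knockouts. An unadjusted p under 0.05 was reached by 2 members in Tet1-/- (Smc1b and Stag3, lower), where 12.6% of all genes did so, and by 4 in Tet2-/- (Smc1b and Stag3 lower, Smc1a and Stag1 higher), where 42.9% did. In DKO it was reached by Rad21l alone (higher, 14.6% of all genes) and in TKO by Stag3 and Smc1a (higher, 23.5% of all genes). Without the fold limit 2 members, Stag3 and Smc1a, passed in Tet2-/- at D6, as did 28.5% of all genes. Smc1a in Tet2-/- at D6 was 0.30 above WT (SE 0.0969, edgeR adjusted p = 0.0410, a change of 1.23-fold).

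The median log2 difference from WT over the 4 meiotic members at D6 was 0.50 in TKO, -0.83 in Tet2-/-, -0.72 in Tet1-/- and -0.10 in DKO, against -0.03 to 0.02 over all genes tested. For the 4 mitotic members it was 0.20 in TKO, 0.16 in Tet2-/-, 0.12 in Tet1-/- and 0.05 in DKO. Between the days, with Smc1b and Rad21l left aside, 1 of 6 members, Stag2, was called in each genotype. Of all genes 34% were called for WT, 31.1% for Tet1-/-, 29.2% for DKO, 25.4% for TKO and 19.1% for Tet2-/-, so that this count is not above the share of all genes. Without the fold limit 3 of the 6 passed in TKO (Stag3 and Smc1a besides, both lost without TKO_8.12 at D0), as did 50.5% of all genes. In each other genotype 2 of the 6 passed, Stag2 with Stag3 in Tet2-/- (40% of all genes) and with Rad21 in WT (66.3%), DKO (55.6%) and Tet1-/- (63.4%). Stag3 in Tet2-/- and Rad21 in WT and DKO did not pass under every alternative setting. For the effect of a knockout at D6 against that at D0, edgeR called Stag3 in TKO, as did DESeq2. Both called 0 of these 6 members in Tet1-/-, Tet2-/- and DKO, where edgeR called 0%, 8.68% and 0% of all genes. An unadjusted p under 0.05 was reached by 0, 0 and 1 member there and by 2 in TKO, against 7.67%, 32.7%, 8.02% and 23.6% of all genes.

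**Figure D5:**
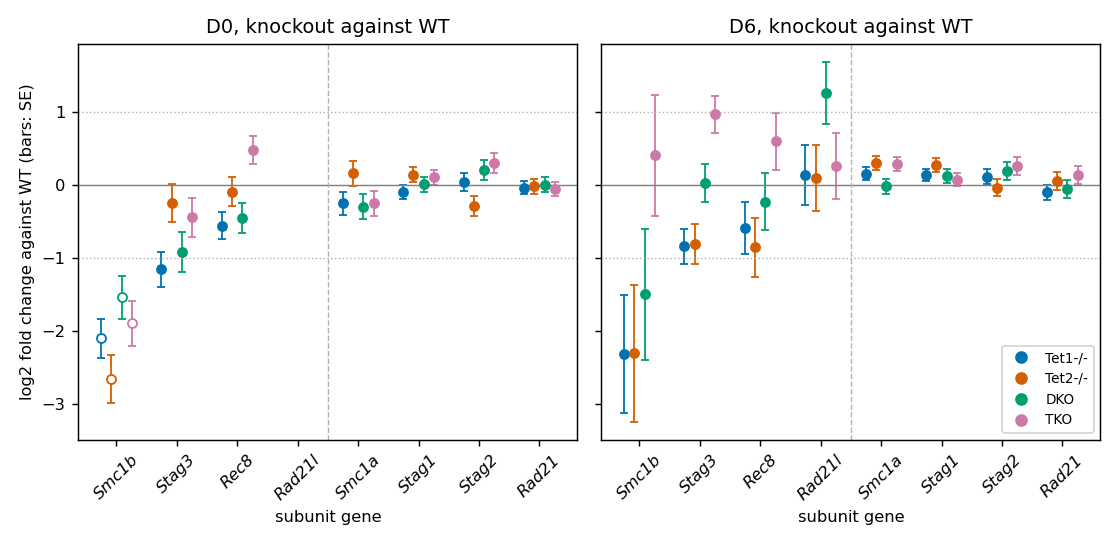
Log2 fold change of each subunit against WT with its standard error, at D0 (left) and D6 (right), coloured by knockout genotype, with dotted lines at 2-fold. Open symbols mark Smc1b at D0, on which it was picked, Rad21l was not tested at D0, and the mitotic members lie between -0.30 and 0.30 at both days.

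The other genes of the meiotic chromosome axis and synaptonemal complex, which assemble on meiotic cohesin, were tested as a list of 10. At D0 edgeR called Hormad2, an axis protein, lower in Tet2-/- (-2.46, SE 0.379, edgeR adjusted p = 0.00686), where 3.19% of all genes were called. Tex12 had 1 and 2 counts in the Tet2-/- clones, under the limit that a count of 0 allows, and passed the filter through higher libraries. Its call in Tet2-/- is therefore not counted, and no fold is given. DESeq2 also called Sycp2 lower there, with 5 and 2 counts. In the other knockouts edgeR called 0 at D0, with 3 of the 10 at an unadjusted p under 0.05 in Tet1-/- (12.6% of all genes), 2 in DKO (14.4%) and 2 in TKO (26.4%), and DESeq2 called 1, Syce1, lower in TKO. At D6 Hormad2 was called lower in Tet2-/- too (-2.14, SE 0.718, edgeR adjusted p = 0.0464), and Syce2, another central element protein, 1.21 higher (SE 0.256, edgeR adjusted p = 0.00965). Hormad2 then had 24 and 12 counts in the Tet2-/- clones and 14, 130 and 57 in WT clones O4.1, O4.2 and O4.13. WT clone O4.1 thus did not stand clear of Tet2-/-, and O4.2 was the highest. The median log2 difference of this list was 1.19 in TKO at D6. There 6 of 9 genes tested reached an unadjusted p under 0.05 (23.5% of all genes), all higher. By edgeR 0 were called (0% of all genes), and by DESeq2 2, Hormad1 and Sycp1. The share of all genes that DESeq2 called was not computed.

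Between the days this list split. Of its 9 genes tested at both days, edgeR called 1 higher and 3 lower in WT (34% of all genes) and 3 higher and 0 lower in TKO (25.4%). It called 1 higher and 2 lower both in DKO (29.2%) and in Tet1-/- (31.1%), and 2 higher and 0 lower in Tet2-/- (19.1%). Sycp3, a lateral element protein that lines meiotic axes, rose in all 5 genotypes, by 1.13 in Tet1-/- (SE 0.331, edgeR adjusted p = 0.00607) to 1.94 in Tet2-/- (SE 0.404, edgeR adjusted p = 0.000940). Syce1, of the central element, fell by 3.21 in WT (SE 0.445, edgeR adjusted p = 4.96e-06), by 2.54 in Tet1-/- (SE 0.429, edgeR adjusted p = 4.98e-05) and by 1.86 in DKO (SE 0.511, edgeR adjusted p = 0.00487). Hormad1, an axis protein, fell by 2.53 in WT (SE 0.523, edgeR adjusted p = 0.000332), and Trip13 was also called lower there. The knockout effect on Syce1 at D6 exceeded that at D0 by 2.01 in Tet2-/- (SE 0.658, edgeR adjusted p = 0.0444) and by 2.402 in TKO (SE 0.665, edgeR adjusted p = 0.0390), where 8.68% and 3.58% of all genes were called. The TKO clones did not move alike for Syce1, from 2.80 to 4.15 CPM in TKO_8.4 and from 12.03 to 4.34 CPM in TKO_8.12. In TKO, Sycp1, the transverse filament of the synaptonemal complex, rose by 1.72 (SE 0.277, edgeR adjusted p = 6.02e-05) and Sycp2 by 2.11 (SE 0.772, edgeR adjusted p = 0.0295). Sycp2 went from 5 to 82 counts in TKO_8.4 and from 16 to 24 in TKO_8.12, so that TKO_8.4 carried most of its rise.

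Of the 13 meiotic recombination genes, 11 were tested at D0 and 12 at D6. Rec114, which helps make meiotic double-strand breaks, was the one called against WT by edgeR (3.19% of all genes in Tet2-/- and 3.15% in TKO), lower at D0 in Tet2-/- (-2.68, SE 0.311, edgeR adjusted p = 0.00222) and in TKO (-1.23, SE 0.281, edgeR adjusted p = 0.0209). Between the days, of the 11 genes of this list tested at both, edgeR called 1 higher and 3 lower in WT (34% of all genes), 1 and 1 in Tet1-/- (31.1%), 1 and 2 in DKO (29.2%), 2 and 1 in TKO (25.4%) and 0 in Tet2-/- (19.1%), where 5 reached an unadjusted p under 0.05 and DESeq2 called Rec114 lower. By DESeq2 Rec114 was also called lower than in WT at D6 in Tet2-/-. It fell between the days in WT by 1.74 (SE 0.543, edgeR adjusted p = 0.00868). WT clones O4.1, O4.2 and O4.13 had 213, 361 and 276 counts of it at D0 and 13, 205 and 73 at D6, so that O4.2 fell least. Mlh3, a crossover factor, fell by 1.41 in WT (SE 0.0997, edgeR adjusted p = 1.47e-09), while Msh5 rose by 1.54 (SE 0.462, edgeR adjusted p = 0.00683). Dmc1, the meiotic recombinase, rose by 1.14 in Tet1-/- (SE 0.262, edgeR adjusted p = 0.000953) and by 1.09 in TKO (SE 0.314, edgeR adjusted p = 0.00741). Mei4 fell by 1.01 in WT (SE 0.242, edgeR adjusted p = 0.00121), which was no call by DESeq2.

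The factors that load, release and protect cohesin and the subunits of related SMC complexes were seldom past the 2-fold limit. Of 15 loading, release and protection factors edgeR called 1 against WT, Pttg1 (securin, the inhibitor of the protease that cleaves kleisins), lower at D6 in Tet2-/- (-1.42, SE 0.326, adjusted p = 0.0123), where 14.3% of all genes were called, and 0 between the days. DESeq2 gave the same counts. Without the fold limit 9 of the 15 passed between the days in Tet1-/- (63.4% of all genes), 9 in TKO (50.5%), 7 in DKO (55.6%), 7 in Tet2-/- (40%) and 5 in WT (66.3%). Of 13 condensin and SMC5/6 subunits 0 were called against WT or between the days by edgeR or DESeq2, and without the fold limit 3 passed between the days in TKO, 5 in Tet2-/-, 6 in DKO, 6 in WT and 7 in Tet1-/-. The smallest adjusted p was that of Nsmce1 between the days in Tet2-/- (-0.98, SE 0.125, edgeR adjusted p = 8.20e-06). Of 11 genes of PRC1.6 and its partners 0 were called against WT at either day by edgeR or DESeq2, with 4 higher at an unadjusted p under 0.05 in TKO at D0 (26.4% of all genes) and 6 in Tet2-/- at D6 (42.9%), where the smallest adjusted p was that of Mga (0.45, SE 0.104, edgeR adjusted p = 0.0125, under 2-fold). Between the days L3mbtl2 fell by 1.06 in WT (SE 0.114, edgeR adjusted p = 2.43e-07) and Wdr5 by 1.09 in Tet1-/- (SE 0.118, edgeR adjusted p = 3.41e-07) and 1.07 in DKO (SE 0.145, edgeR adjusted p = 7.34e-06). Of 6 genes of DNA methylation Dnmt3l, the cofactor of the de novo methyltransferases, was called against WT by edgeR, lower in TKO at D0 (-1.14, SE 0.109, edgeR adjusted p = 0.000355; 3.15% of all genes) and higher in Tet2-/- at D6 (1.45, SE 0.429, edgeR adjusted p = 0.0296; 14.3% of all genes). DESeq2 called it higher at D6 in DKO and TKO too, and Dnmt3a higher in Tet2-/-. Between the days it fell by 2.18 in WT (SE 0.314, edgeR adjusted p = 7.41e-06) and by 1.51 in Tet1-/-, where 34% and 31.1% of all genes were called. Dnmt3b, a de novo methyltransferase, was called higher in all 5 genotypes, where 19.1% to 34% of all genes were called, by 1.19 in TKO (SE 0.322, edgeR adjusted p = 0.00509) to 2.34 in Tet2-/- (SE 0.333, edgeR adjusted p = 2.58e-05). The TKO call for Dnmt3b rested on clone TKO_8.4, which went from 149 to 610 CPM, while TKO_8.12 had 203 and 189 CPM.

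Of 5 listed factors that tie meiotic cohesin to telomeres and kinetochores, 2 were in the table, and 0 were called against WT by edgeR or DESeq2 at either day, with 1 at an unadjusted p under 0.05 in Tet1-/- (12.6% of all genes) and in Tet2-/- (42.9%) at D6. Ccdc79 (Terb1), which anchors meiotic telomeres, rose between the days in Tet1-/- by 1.06 (SE 0.324, edgeR adjusted p = 0.00812) and in Tet2-/- by 1.27 (SE 0.390, edgeR adjusted p = 0.0144), where 31.1% and 19.1% of all genes were called. Its Tet2-/- effect at D6 exceeded that at D0 by 1.64 (SE 0.508, edgeR adjusted p = 0.0357; 8.68% of all genes), a call by DESeq2 too. Of 7 germ cell markers tested, edgeR called 2 lower in TKO at D0, Dazl and Sohlh2 (3.15% of all genes), and 1 lower in Tet2-/-, Dazl (3.19%). At D6 it called Ddx4 and Nanos3 higher and Dppa3 lower in Tet2-/- (14.3% of all genes). In TKO at D6 it called 0, with 3 at an unadjusted p under 0.05 (23.5% of all genes), while DESeq2 called Dazl, Ddx4 and Dppa3 higher, and the median of the list was 1.35 above WT on the log2 scale. For 3 of the 7, Dazl, Ddx4 and Sohlh2, the TKO effect at D6 exceeded that at D0 by the test of the difference (3.58% of all genes). Markers of 2-cell-like cells had 0 to 15 counts each in the TKO and Tet2-/- libraries at D0, many of them under the limit that a count of 0 allows, so no test of them is given. Their summed level in the TKO clones was 0.710 and 0.330 CPM at D0 and 4.61 and 0.499 CPM at D6, against 1.98 to 5.18 CPM and 0.290 to 0.504 CPM in WT. The part of such cells in the Smc1b and Stag3 levels of the TKO clones was not tested.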

How the data were processed

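Polyadenylated RNA with ERCC spike-ins was sequenced by the authors, who aligned the reads to mm9 with STAR 2.5.1 and deposited 1 table of raw read counts per gene for each day. The counting program is named differently in the sources (HTSeq or featureCounts), and use of the strand is not stated. Of the 31928 rows the first row of each of 22926 symbols was used (4911 symbols had more than 1 row, among the members Stag2 with 3).

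Groups were taken from the labels, and genotypes were compared with WT at each day and, at D6, with DKO, D6 with D0 within genotypes, and the knockout effects between days. edgeR 4.0.16 (R 4.3.3, limma 3.58.1) quasi-likelihood tests with TMM scaling, a minimum count of 10 in filterByExpr and Benjamini-Hochberg adjustment were fitted over all 12 libraries of a day or all 24, with 14456, 15435 and 15639 genes tested at D0, at D6 and over both days. A call needed an adjusted p under 0.05 and more than 2-fold. The study's own model was DESeq, and DESeq2 1.42.0 was run as an alternative. Shares of all genes are those of edgeR, since the share that DESeq2 called was not computed. CPM were TMM-scaled over all libraries, and log2 levels used CPM + 1. P-values measure the spread between clones of one line. The tests were tried on simulated data first. The members and lists were chosen with earlier results of these data known. The named genes were the 8 members, the genes next to the meiotic ones, the 10 genes most like Smc1b, of which 1 is not reported here, and called genes of the lists, of which some are given by counts alone.

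Libraries of the same clone at both days are paired by the clone named in the labels (D6_DKO_512 was read as DKO_5.12), and their deviations from group means correlated (r of 0.0813 to 0.193 over 11 pairs). Other alternatives were no filter, scaling by library totals, the sum of all rows of a symbol, leaving out each library, and adjusted p without the fold limit.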

Additional observations from a re-analysis of the deposited data

Results flagged for a closer look

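The effect of TKO on Stag3 differed between the days by the test of the difference itself. The log2 difference from WT at D6 exceeded that at D0 by 1.40 (SE 0.391, edgeR quasi-likelihood test, adjusted p = 0.0406), with 1.43 (adjusted p = 0.0451) when the clone was a replicate block. Leaving out single libraries gave adjusted p of 0.0149 to 0.112. Both TKO clones were higher at D6 than at D0 and 3 of 3 WT clones were lower. Differentiation markers summed to 89.7 CPM in TKO_8.4 and 285 CPM in TKO_8.12 at D6, against 206 to 745 CPM in WT. Their part in the Stag3 values was not tested.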

How the results depend on the processing

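Of 852 values recomputed for 35 results, 805 were the same. For a log2 difference this means the same direction and side of the threshold. For a count of members called it means no change by over 1.5 times, so that a single call could still change. The count of members besides Smc1b called in Tet1-/- at D0 went from 0 to 1 with DESeq2 and with no filter on low counts. With adjusted p alone, an alternative chosen after seeing the data, 2 members were called in Tet2-/- at D6 and 4 between the days in TKO. With single libraries left out, these counts ranged from 0 to 1 in Tet1-/- at D0, 0 to 2 in Tet2-/- and in TKO at D6, 1 to 2 between the days in WT, Tet2-/- and DKO, 2 to 3 in TKO, and 0 to 1 for the TKO effect between the days. The counts between the days include Rad21l, which passed the filter on low counts only at D6 and is no test, and each drop to 1 in WT, Tet2-/- and DKO was the loss of its call. The log2 difference of Smc1b at D6 then ranged from -2.97 to -0.82 in Tet1-/-, -2.76 to -0.81 in Tet2-/-, -2.59 to -0.01 in DKO and -0.07 to 1.90 in TKO against WT, and from -1.47 to 0.28 in Tet1-/-, -1.39 to 0.29 in Tet2-/- and 1.30 to 3.00 in TKO against DKO. It reversed in TKO against WT without clone TKO_8.4 (-0.01) or WT clone O4.1 (-0.0652), and without clone DKO_5.12 in Tet1-/- (0.28) and Tet2-/- (0.29) against DKO. The replicate block by clone turned no direction and moved no count by over 1.5 times in 20 results, as did the block by replicate number in 15, and the numbers within a day only name libraries (r of -0.0718 to 0.312 at D0 and -0.377 to 0.312 at D6). With the block by clone 3 members in place of 2 were called between the days in TKO, since the Stag3 change passed the 2-fold limit (1.01, edgeR adjusted p = 0.0161), as with DESeq2 (1.00, adjusted p = 0.00347) and library totals (1.15, edgeR adjusted p = 0.00480).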
